A study of Mus musculus with 64 samples.

Results

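Interferon and nucleic acid sensing genes were examined in the RNA-Seq libraries of mouse testis and of sorted male germ cells from mutants in which transposons are derepressed. The members were 39 genes, found by their symbols among the 26385 genes that each of the 47 tables lists. They comprised 6 sensors of RNA and DNA, 3 adaptors, 5 transcription factors, 5 OAS proteins, 2 genes of ISG15 conjugation, 9 antiviral effectors, 5 nucleases and editors, and 4 other interferon-induced genes. The question was whether a loss of transposon silencing was accompanied by an innate response in the germ cells or in the testis around them.

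Cells detect foreign or misplaced nucleic acid with sensors such as RIG-I (Ddx58), MDA5 (Ifih1), PKR (Eif2ak2) and the endosomal receptor TLR3. RIG-I and MDA5 signal through the adaptor MAVS, TLR3 through TRIF, and sensors of cytoplasmic DNA through STING (Tmem173), to IRF transcription factors, which switch on type I interferons, whereas PKR halts translation. Secreted interferon then acts through STAT2 and IRF9 to induce a large set of effector genes, among them the OAS, IFIT and MX families and ISG15. Transcripts of endogenous retroviruses and LINE elements can form double-stranded RNA or complementary DNA, and several members (Samhd1, Trex1, Adar, Apobec3) are known to restrict retroelements or to keep their products from being sensed.

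MORC1 is a germline ATPase required for transposon silencing. The Morc1 tg allele, which the labels call KO when homozygous, carries a tyrosinase transgene that removed exons 2 to 4. Sorted germ cells were from Morc1 tg/tg and Morc1 tg/+ males at E16.5 (2 libraries of each), at E18.5 (2 of each), at P2.5 (2 tg/tg, 3 tg/+) and at P10.5 (3 tg/tg, 4 tg/+). Whole testis was from Morc1 tg/tg and control males at P10.5 (3 tg/tg, 2 tg/+ and 1 +/+) and P14.5 (3 and 3), from Dnmt3l-/-, Dnmt3l+/- and Dnmt3l+/+ males at P10.5 (3 each), and from males labelled Miwi2 KO and Miwi2 het at P10.5 (2 and 2). DNMT3L is the cofactor of germline de novo DNA methylation, and MIWI2 (Piwil4) is a nuclear PIWI protein that acts before birth. Cells from E16.5 to P2.5 were sorted by an Oct4-IRES-eGfp reporter on a mixed background, which marks cells with an active Oct4 reporter. The P10.5 cells, of FVB/N mice, were sorted as low side scatter, high EPCAM and MHC class I negative, so that a cell with raised surface MHC class I would have been gated out. Each library came from 1 mouse, and 2 preliminary P10.5 testis libraries (1 Morc1 tg/+ and 1 Morc1 +/+) were left out of the main comparisons. The strains of the Dnmt3l and Miwi2 mice are not given in the sources used here.

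Reads counted on genes ranged from 2413679 to 14918478 (median 7542692) in the 20 sorted libraries and from 22509570 to 42137954 (median 28815956) in the 27 testis libraries. Sorted and testis libraries were made with different kits (rRNA-depleted total RNA against poly(A) RNA), so the kit cannot be told apart from the tissue. Germ cell markers summed to between 376 and 961 RPKM (reads scaled to exon length and to library size) in the sorted libraries, against at most 49.0 RPKM for 6 Sertoli cell markers. The 12 macrophage markers summed to between 4.49 and 21.8 RPKM at E16.5, E18.5 or P10.5 and to between 24.1 and 59.5 RPKM at P2.5, compared with 63.8 to 77.0 RPKM in control testis of the Morc1 line at P10.5. Other lists were not lower in the sorted cells. From E16.5 to P2.5 the 6 lymphocyte markers summed to between 7.60 and 32.0 RPKM, against 1.25 to 2.68 RPKM in that testis. The 5 endothelial markers summed to between 28.3 and 38.2 RPKM at E18.5, against 32.4 to 37.2 RPKM in that testis. They were lower at E16.5 and P2.5, at 14.4 to 21.9 RPKM, and at P10.5, at 2.25 to 3.98 RPKM. Where these transcripts came from was not tested. Morc1 was lower in every Morc1 tg/tg library than in its controls (called in each comparison but E18.5, adjusted p = 0.14), from 11.2 and 8.29 RPKM against 36.1 and 52.9 RPKM at E16.5 to 2.41, 2.06 and 2.32 RPKM against 6.29, 6.46 and 10.2 RPKM in P10.5 testis. Dnmt3l fell by 3.93 on the log2 scale in Dnmt3l-/-. Piwil4 went against its label: the libraries labelled Miwi2 KO held 10.7 and 11.6 RPKM and those labelled Miwi2 het 6.65 and 7.01 RPKM (log2 difference 0.69, adjusted p = 0.000746, edgeR), and the comparison is therefore given by its label. Counts per gene do not show which exons of Piwil4 the reads came from, and whether the allele leaves a counted transcript was not tested.

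The promoters of the members were searched for a motif of the interferon pathway. The letters GAAA, any 2 bases and GAAA again, the core of the interferon-stimulated response element, were searched on both strands from 250 bases before to 50 bases after each gene's start in the RefSeq annotation of GRCm38.p6. A promoter entry was found for 31 of the 39 members, and 12 of these (38.7%) held a match, compared with 3.99% of all 27025 genes in the same table. The 12 were Bst2, Ifit1, Ifit3, Rsad2, Isg15, Apobec3, Oas1a, Oas3, Ddx58, Eif2ak2, Ifih1 and Stat2. Isg15, Ifit3 and Bst2 are printed as members with matches before the start, and Samd9l as a member called in both germ cells and testis of the mutants, with the matched letters in capitals (overlapping matches run together). Isg15 has 3 matches in chr4:156200841-156200930 (minus strand), Ifit3 has 2 in chr19:34583350-34583439 (plus strand, matched on the opposite strand), Bst2 has 2 in chr8:71537550-71537639 (minus strand), and Samd9l has none in its 300 bases, of which chr6:3399572-3399661 (minus strand), the 90 bases just before the start, is printed.
Isg15: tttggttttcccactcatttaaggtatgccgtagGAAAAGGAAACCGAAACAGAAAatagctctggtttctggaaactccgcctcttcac
Ifit3: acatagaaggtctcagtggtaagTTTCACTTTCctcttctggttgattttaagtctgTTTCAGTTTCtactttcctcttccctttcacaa
Bst2: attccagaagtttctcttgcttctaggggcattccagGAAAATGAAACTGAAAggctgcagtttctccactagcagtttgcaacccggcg
Samd9l: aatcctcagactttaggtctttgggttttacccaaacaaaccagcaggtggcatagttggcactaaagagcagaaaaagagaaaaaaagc
A match describes these letters in this window and is not evidence that a factor bound there.

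In bulk samples such as these, fewer cells of a type and less RNA per cell cannot be told apart. By mean RPKM, 22 of 39 members reached at least 1 RPKM in control germ cells at E16.5, 19 at both E18.5 and P2.5, and 18 by P10.5, compared with 21 to 25 in the control testis groups. Over the 11 control germ cell libraries, the nuclease Samhd1, which depletes deoxynucleotides, ranged from 13.2 to 29.1 RPKM (median 20.0). Bst2 (tetherin, which holds budding virions at the membrane) ranged from 0.879 to 33.8 RPKM (median 9.83), and Adar, the editor of double-stranded RNA, from 0.813 to 13.7 RPKM (median 9.68). The 3 genes were thus all expressed at a median near or above 10 RPKM, with Bst2 and Adar differing widely between stages and libraries.

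Several interferon-induced members were low in the same germ cells. Ifit1 had a median of 0 RPKM and a highest value of 0.176 RPKM, Ifit3 0 and 0.268 RPKM, Mx1 0.196 and 0.552 RPKM, and the sensor Zbp1 0.0362 and 0.227 RPKM. Oasl2 reached 8.05 RPKM, with a median of 2.49 RPKM. Isg15, the ubiquitin-like modifier, had a median of 1.14 RPKM and ranged from 0 to 5.19 RPKM. In the 14 control testis libraries Bst2 again was the highest effector, at 23.4 to 45.6 RPKM (median 35.0), followed among members by Irf3 at 21.6 to 35.2 RPKM (median 24.8), Mavs at 14.2 to 23.95 RPKM (median 19.5) and Irf1 at 10.3 to 21.1 RPKM (median 17.4), with ranges that overlap from each gene to the next. Ifit1 reached no more than 0.176 RPKM there, and Oas3 no more than 0.0615 RPKM. Trex1, the main cytoplasmic DNA exonuclease, was listed at 0 in all 47 libraries. Its annotated span of 2406 bases lies wholly inside that of Atrip on the same strand. Its reads may have been left uncounted as shared with Atrip, which was not tested, and no level of Trex1 is reported. Ifnb1, which encodes interferon beta, was listed at 0 in every library as well.

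**Figure D1:**
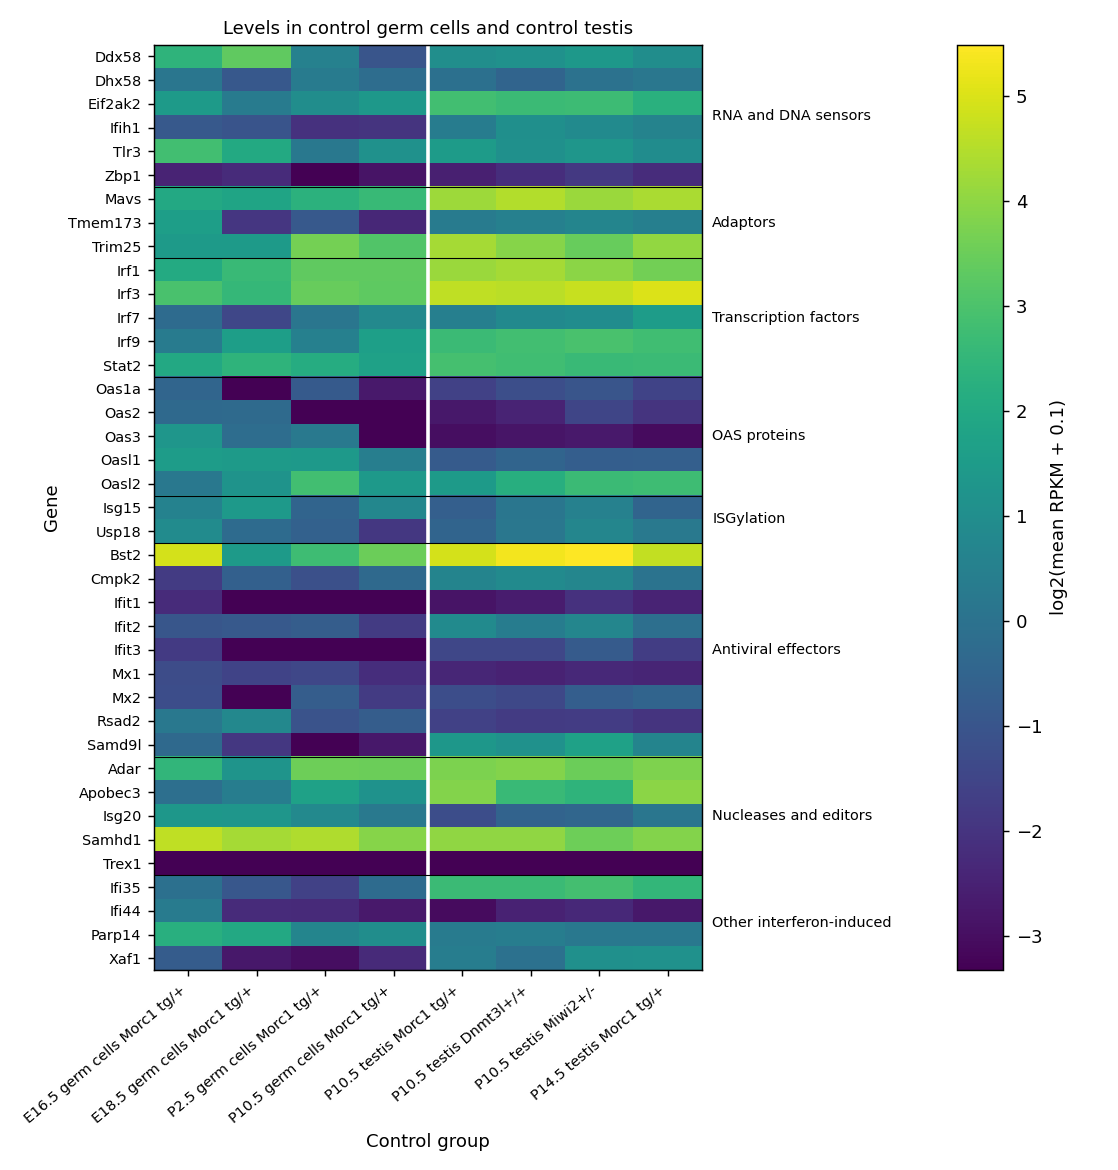
Mean level of each of the 39 members, as log2(mean RPKM + 0.1), in 4 groups of control germ cells and 4 groups of control testis, with genes in rows by role. Samhd1 and Irf3 are bright in all 8 groups, whereas Ifit1, Ifit3, Zbp1 and Trex1 are dark.

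Control germ cells of successive stages were compared in 1 fit. Between E16.5 and E18.5, 1 of 34 members tested rose and 2 fell, beside 18.7% of all genes tested (8.13% higher). The count of 3 was 11 without E18.5 replicate 1, 5 without P2.5 replicate 1 and 1 without E16.5 replicate 2. At the same step 5 of 7 germ cell markers tested fell and 1 rose, 2 of 6 meiosis, 1 of 6 Sertoli cell and 1 of 5 endothelial markers rose, and none of the 7 macrophage markers tested was called, and their part was not tested. Bst2 went from 26.3 and 33.8 RPKM to 2.18 and 3.24 RPKM (log2 difference -3.41, SE 0.68, adjusted p = 0.00208). Adar went from 5.05 and 5.98 RPKM to 3.75 and 0.813 RPKM (log2 difference -1.32, adjusted p = 0.0166), and Irf9, the DNA-binding partner of STAT2, from 0.885 and 1.44 RPKM to 2.22 and 3.69 RPKM (log2 difference 1.41, adjusted p = 0.0279). No E18.5 value of these 3 genes lay within the E16.5 range. Such separation was not counted over all genes and is no added support. Irf9 lost its call in 5 of 11 fits without 1 library (adjusted p of 0.0501 to 0.221) and Adar without E16.5 replicate 2 (adjusted p = 0.0559).

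From E18.5 to P2.5, 3 of 34 members rose and 6 fell, a share below the 39.1% called among all genes. Markers of other cell types moved as well. Of those tested, 2 of 5 Leydig, 2 of 5 peritubular, 2 of 5 endothelial and 2 of 3 lymphocyte markers fell, 2 of 7 macrophage markers rose (sums of 9.34 to 11.4 and 24.1 to 43.2 RPKM), and 1 of 6 Sertoli cell markers rose and 2 fell. Of the germ cell markers 3 of 7 rose and 1 fell, and of the meiosis markers 3 of 6 rose and 1 fell. Their part was not tested. RIG-I (Ddx58) went from 10.49 and 9.47 RPKM to 2.71, 0.941 and 0.458 RPKM (log2 difference -3.15, SE 0.55, adjusted p = 0.00034), and Tlr3 from 5.43 and 2.61 RPKM to 0.463, 0.908 and 1.76 RPKM (log2 difference -2.04, adjusted p = 0.000616). Oas2, which makes the second messenger for RNase L, went from 40 reads over the E18.5 libraries to none at P2.5, a level at least 26.1-fold lower against a floor of 3 reads over the group. With no read at P2.5, Oas2 passed the filter on low counts through other stages alone, so its being tested and being higher there go together. In the other direction, Adar rose by 2.23 and the RIG-I ubiquitin ligase Trim25 by 2.09 on the log2 scale, to 9.54, 11.6 and 13.7 RPKM and to 11.4, 12.4 and 13.9 RPKM. Of the 5 sensors tested, Ddx58 and Tlr3 were thus called lower at P2.5 and none higher, in libraries in which Adar and Trim25 were called higher. From P2.5 to P10.5, Tlr3 (log2 difference 1.23) and Irf9 (1.47) rose, and Ddx58 (-1.41), Oasl2 (-1.15) and Oas3 fell, a total of 5 of 34 members against 27.6% of all genes. Oas3 went from 141 reads to none, at least 102.2-fold lower. It likewise passed the filter on low counts through stages other than P10.5 alone. Ddx58 lost this call in 7 of 11 fits without 1 library (adjusted p of 0.0523 to 0.386), with a log2 difference of -0.54 without P2.5 replicate 1, and Tlr3 lost it without P2.5 replicate 2 (adjusted p = 0.0501). Of the markers tested, 3 of 7 macrophage, 3 of 5 endothelial, 1 of 5 peritubular and 1 of 3 lymphocyte markers and 4 of 7 germ cell markers fell, and 5 of 6 meiosis and 3 of 6 Sertoli cell markers rose, and their part was not tested. The background of the mice and the reporter and gate used for sorting changed between P2.5 and P10.5, and so cannot be told apart from the stage.

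In control testis of the Morc1 line, 10 of 33 members rose and 10 fell from P10.5 to P14.5, close to the 58.8% of all genes called (29.6% higher, 29.2% lower). Mean levels of Isg20, Oasl2 and Irf7 rose from 0.342 to 0.989, from 2.54 to 6.71 and from 1.33 to 2.83 RPKM (log2 differences 1.51, 1.40 and 1.084). Ifit2, Cmpk2 and Samd9l fell from 1.84 to 0.822, from 1.52 to 0.926 and from 2.41 to 1.47 RPKM (log2 differences -1.16, -0.72 and -0.72). These 6 genes were picked from called members for which all the libraries of 1 age lay beyond those of the other. Their separation follows from that choice and is no added support. Over the same days the 6 meiosis markers summed to 91.3 to 98.5 RPKM at P10.5 and 320 to 413 RPKM at P14.5. Of the macrophage markers, 10 of 12 rose (sums of 63.8 to 77.0 and 97.5 to 157 RPKM), and of the Sertoli cell markers 5 of 6 fell and 1 rose. The part of these cell types in the differences was not tested.

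Loss of MORC1 was accompanied by few calls among the members in fetal and newborn germ cells. At E16.5, 0 of 35 members tested passed an adjusted p of 0.05 in edgeR, compared with 0.421% of all genes (0.385% higher, 0.0361% lower), whereas 3 members had an unadjusted p under 0.05 and DESeq2 called 1 (Ifi44). At E18.5, 0 of 29 passed, compared with 0.0416% of all genes, 3 had an unadjusted p under 0.05 and DESeq2 called 2 (Ifi44 higher, Irf9 lower). How many of all genes had an unadjusted p under 0.05 was not counted, so the counts at that threshold have no background here. At P2.5, 1 of 29 passed, compared with 0.0486% of all genes (0.0416% higher, 0.00694% lower). The median log2 difference over the members tested was -0.06, 0.30 and -0.11 at the 3 stages, beside -0.01, 0.02 and -0.02 over all genes. The libraries of E18.5 and P2.5 held 2413679 to 6880081 reads, with 2 libraries in the mutant arm, which limits what could be detected in the low members. The number of all genes called also shifted with the setting, from 6 at E18.5 in the reported fit to 296 with DESeq2.

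Samd9l, an interferon-induced gene that restricts poxviruses and has been linked to endosome fusion, was called in 4 of the 8 comparisons of a mutant with its controls, of which it entered those in P2.5 and P10.5 germ cells through its level in the mutant alone. In Morc1 tg/tg germ cells it was at 1.38 and 1.12 RPKM at E16.5 against 0.671 and 0.737 RPKM in Morc1 tg/+ (log2 difference 0.75, adjusted p = 0.529). At E18.5 it was at 1.89 and 1.38 RPKM against 0.339 and 0 RPKM (log2 difference 3.45, SE 1.47, adjusted p = 0.79). At P2.5 it was at 1.82 and 3.87 RPKM, or 254 reads over the Morc1 tg/tg libraries, and at 0 in all 3 Morc1 tg/+ libraries. Every Morc1 tg/tg value thus lay above every Morc1 tg/+ value at these 3 stages. How many of all genes separate in this way was not counted, so the separation is no support for a difference. With 12 reads over the E18.5 Morc1 tg/+ libraries, Samd9l passed the filter on low counts there through the Morc1 tg/tg libraries alone. Of these 3 stages the test was passed at P2.5, with the limit given below.

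The P2.5 difference was at least 147.6-fold against a floor of 3 reads over the control group (adjusted p = 0.00886). Samd9l passed the filter there through the Morc1 tg/tg libraries alone, so its being tested and being high go together. The call was lost without Morc1 tg/+ replicate 1 (adjusted p = 0.197), replicate 2 (0.232) or replicate 3 (0.165) and without Morc1 tg/tg replicate 2 (0.0688), and remained without Morc1 tg/tg replicate 1. At P10.5, Samd9l was at 0.736, 1.25 and 0.865 RPKM in Morc1 tg/tg and 0.0902, 0, 0.0347 and 0.0747 RPKM in Morc1 tg/+ (log2 difference 4.17, SE 0.49, adjusted p = 1.54e-06). The lowest Morc1 tg/tg value was above the highest Morc1 tg/+ value, and the call held in each of the 7 fits that left out 1 library. Its 17 reads over the 4 Morc1 tg/+ libraries mean that at P10.5, too, it passed the filter on low counts through the Morc1 tg/tg libraries alone.

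Ifi44 is an interferon-induced gene of unsettled function. Its level was 2.69 and 2.42 RPKM at E16.5 in Morc1 tg/tg against 0.906 and 1.41 RPKM in Morc1 tg/+ (log2 difference 1.07, SE 0.29, adjusted p = 0.124). At E18.5 it was 3.83 and 4.68 RPKM against 0.222 and 0 RPKM (log2 difference 5.44, SE 1.084, adjusted p = 0.241). All Morc1 tg/tg libraries were above all Morc1 tg/+ libraries at both stages, and neither difference passed the test. Other members separated in either direction without passing it. Ifit2 was at 0.157 and 0.157 RPKM in Morc1 tg/tg against 0.380 and 0.433 RPKM at E16.5 (adjusted p = 0.653), and Bst2 at 8.66 and 6.26 RPKM against 2.18 and 3.24 RPKM at E18.5 (log2 difference 1.52, adjusted p = 0.937). DESeq2 and the fit with no filter on low counts called Ifi44 at both stages. With 6 reads over the Morc1 tg/+ libraries at E18.5, Ifi44 passed the filter there through the Morc1 tg/tg libraries alone. Calls made after that filter at E18.5, such as that of DESeq2, are therefore no support for a difference. The call with no filter rests on the same few control reads, in a fit where all genes called went from 6 to 83. The count of 0 members at E18.5 became 2 (Ifi44 and Samd9l) without Morc1 tg/+ replicate 1 and 1 (Ifi44) without replicate 2, in fits that leave 1 control library and take its spread from that of the mutant arm. Ifi44 then was at 0 in both Morc1 tg/tg libraries at P2.5 and at 0.0311 to 0.0734 RPKM at P10.5, and its groups overlapped there.

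Isg15 and Rsad2, both known to be induced by type I interferon, did not separate the genotypes in the fetal libraries. Isg15 was at 2.02 and 1.48 RPKM in Morc1 tg/tg against 1.17 and 1.60 RPKM in Morc1 tg/+ at E16.5, and at 4.36 and 0 against 5.19 and 0 RPKM at E18.5. Rsad2 (viperin) was at 0.273 and 0.9 against 0.88 and 1.22 RPKM at E16.5, and at 5.03 and 1.53 against 1.62 and 1.61 RPKM at E18.5. The genotypes overlapped in all 4 of these comparisons, and in none was the member called. At P10.5 Rsad2 was at 0.922, 0.855 and 0.884 RPKM in Morc1 tg/tg and 0.316, 0.763, 0.516 and 0.428 RPKM in Morc1 tg/+, which did not overlap, and the difference did not pass the test (log2 difference 0.72, adjusted p = 0.162). Ifit3 was at 0 in Morc1 tg/tg at E16.5, against 13 reads over the Morc1 tg/+ libraries, and at 0 in both genotypes at E18.5. The 12 macrophage markers summed to 17.6 to 17.9 RPKM in Morc1 tg/tg and 15.0 to 17.7 RPKM in Morc1 tg/+ at E16.5, to 4.92 to 21.8 and 9.34 to 11.4 RPKM at E18.5, and to 47.7 to 59.5 and 24.1 to 43.2 RPKM at P2.5, with none of the 6, 4 and 7 markers tested at the 3 stages called. At P2.5 that sum moved the same way as Samd9l, with a median log2 difference of 1.40 over the 7 markers tested. Lyz2 was at 0 in both genotypes, Emr1 and C1qc in Morc1 tg/tg, and C1qa in Morc1 tg/+. Their part in the difference was not tested.

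**Figure D2:**
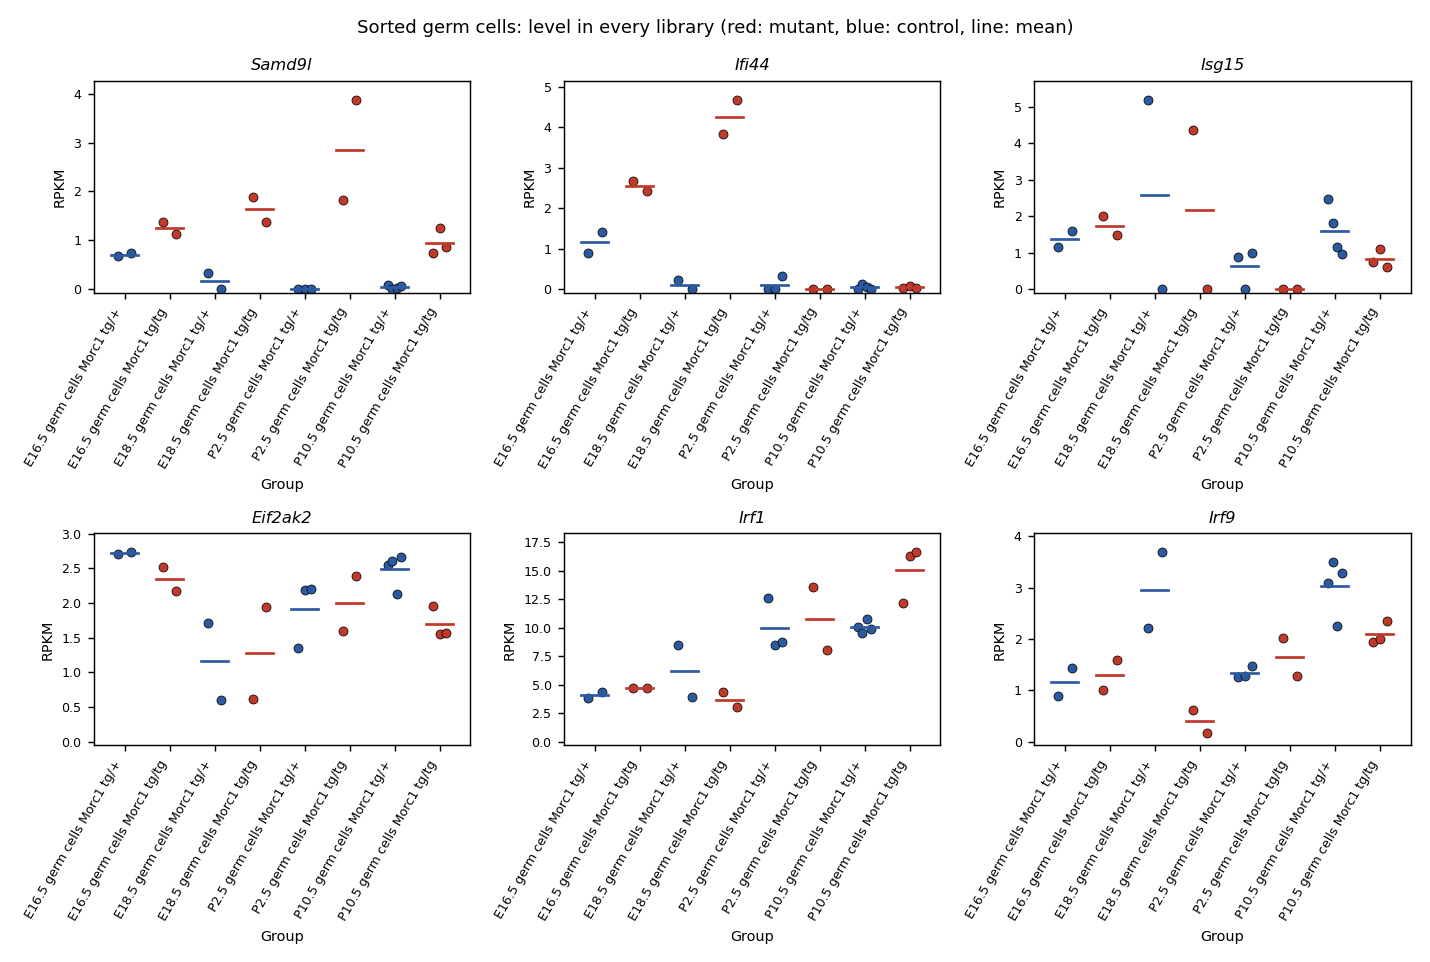
RPKM of 6 members in every sorted library at the 4 stages, with 1 point per library and Morc1 tg/tg beside Morc1 tg/+. For Samd9l all Morc1 tg/tg points lie above all Morc1 tg/+ points at each stage, and for Ifi44 at E16.5 and E18.5.

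By P10.5, 5 of 27 members tested in germ cells were called, compared with 12.2% of all genes. The 3 that rose (6.43% of all genes did) were Samd9l, Irf1 and Samhd1, and the 2 that fell (5.79% of all genes did) were Eif2ak2 and Irf9. The median log2 difference over the 27 was 0.09, beside 0.0032 over all genes. Irf1, a transcription factor induced by interferon gamma, was at 12.2, 16.3 and 16.6 RPKM in Morc1 tg/tg and at 10.1, 9.57, 10.8 and 9.85 RPKM in Morc1 tg/+ (log2 difference 0.50, SE 0.12, adjusted p = 0.00704). Samhd1 was at 18.9, 22.1 and 18.9 RPKM against 16.3, 16.7, 13.2 and 13.2 RPKM (log2 difference 0.34, adjusted p = 0.016). The genotypes did not overlap for either gene, and both differences were under 1.5-fold.

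PKR (Eif2ak2), the kinase that halts translation on double-stranded RNA, was at 1.96, 1.55 and 1.57 RPKM in Morc1 tg/tg and at 2.55, 2.60, 2.12 and 2.67 RPKM in Morc1 tg/+ (log2 difference -0.63, SE 0.18, adjusted p = 0.0195), again without overlap. Irf9 was at 1.95, 2.00 and 2.35 RPKM against 3.09, 3.499, 2.25 and 3.29 RPKM (log2 difference -0.61, adjusted p = 0.0261), and Morc1 tg/+ replicate 3 lay within the Morc1 tg/tg range. The count of 5 fell to 2 (Irf1 and Samd9l) when either replicate 4 of Morc1 tg/+ or replicate 2 of Morc1 tg/tg was left out, and to 1 (Samd9l) when all 20 sorted libraries shared 1 fit. Irf1 lost its call without replicate 3 of Morc1 tg/tg (adjusted p = 0.0623). Of the 7 fits without 1 library, Eif2ak2 lost its call in 3 (adjusted p of 0.0583 to 0.0933). Samhd1 lost it in 3 (0.0629 to 0.0876) and Irf9 in 4 (0.0763 to 0.0986). Eif2ak2 overlaps the small RNA gene n-R5s29 on the opposite strand and Irf9 shares 123 bases with Rnf31 on its own strand. Of the 6 meiosis markers, 5 were lower in Morc1 tg/tg (sums of 110 to 113 against 149 to 173 RPKM), and 3 of 7 germ cell markers were higher. The part of such a shift in germ cell stages was not tested. None of the 5 macrophage markers tested was called, and Emr1, Lyz2, C1qa, C1qc and Tyrobp were at 0 in both genotypes and C1qb in Morc1 tg/tg. Of the 6 Sertoli cell markers 2 were called lower (Wt1 and Cldn11), with sums of 19.8 to 37.9 RPKM in Morc1 tg/tg against 29.5 to 49.0 RPKM and a median log2 difference of -0.65. They moved the same way as Eif2ak2 and Irf9, and their part was not tested.

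Related genes of the pathway, from lists drawn up by name, also moved in both directions in P10.5 germ cells, where 12.2% of all genes were called. Of 23 ligands, receptors and signalling genes tested, 2 rose (the adaptor Traf3, log2 difference 0.43, and the kinase Jak1, 0.26) and none fell. Among 16 further interferon-induced genes, the GTPase Irgm1 rose (log2 difference 0.76, adjusted p = 0.0352) and Herc6, the ligase for ISG15, fell (log2 difference -2.16, adjusted p = 0.0355). Of 6 genes of antigen presentation, both MHC class I heavy chains fell, H2-K1 from a mean of 8.11 to 4.66 RPKM (log2 difference -0.88, adjusted p = 0.000725) and H2-D1 from 3.56 to 2.06 RPKM (log2 difference -0.86, adjusted p = 0.0109). The cells had been gated as MHC class I negative, and the part of the gate was not tested. None of the 5 NF-kB targets tested was called, and of the 9 genes of double-stranded RNA processing and silencing Trim28 (0.24) rose and Adarb1 (-0.35) fell.

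In P10.5 testis of the Morc1 line, 3 of 33 members were called, all higher in Morc1 tg/tg, or 9.09% compared with 15.3% of all genes (6.08% higher, 9.26% lower). The median over the 33 was 0.14 on the log2 scale, beside 0.01 over all genes. Ddx58 was at 2.70, 2.51 and 2.87 RPKM in Morc1 tg/tg against 1.94 and 1.96 RPKM in Morc1 tg/+ and 1.99 RPKM in Morc1 +/+ (log2 difference 0.48, SE 0.09, adjusted p = 0.00545). STING (Tmem173) was at 2.20, 1.46 and 1.88 RPKM against 1.20, 1.14 and 1.11 RPKM (log2 difference 0.69, SE 0.16, adjusted p = 0.0147). Apobec3, a cytidine deaminase active against retroviruses, was at 15.4, 15.7 and 17.3 RPKM against 14.1, 14.6 and 12.2 RPKM (log2 difference 0.27, adjusted p = 0.042). The groups did not overlap for any of the 3, a trait that was not counted over all genes.

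Ddx58 kept its call in each of 6 fits without 1 library, whereas Tmem173 lost it in 2 (adjusted p of 0.0506 and 0.073) and Apobec3 in 4 (0.0591 to 0.188). Those 4 include the fit without the Morc1 +/+ library, which leaves Morc1 tg/+ controls alone (log2 difference 0.19, adjusted p = 0.124). The count of 3 members fell to 1 when replicate 3 of either genotype was left out, and rose to 5 without Morc1 tg/+ replicate 2. Apobec3 shares 100 bases with Cbx7 on the opposite strand, and the kit used for testis RNA does not mark strand, so reads from those bases cannot be told apart. Of the 12 macrophage markers, 8 were higher in these Morc1 tg/tg testes, with sums of 85.3 to 110 RPKM against 63.8 to 77.0 RPKM in Morc1 tg/+ and 76.4 RPKM in Morc1 +/+. All 6 meiosis markers and 4 of 7 germ cell markers were lower. These shifts moved with the 3 members, and their part in the differences was not tested. Of 29 further interferon-induced genes, 7 rose and none fell (24.1% called, beside 15.3% of all genes), among them Rtp4 (log2 difference 0.66, adjusted p = 0.0303) and Lgals3bp (0.63, adjusted p = 0.00397), and of 9 genes of antigen presentation 3 rose, including the immunoproteasome subunit Psmb8 (0.63) and the peptide transporter Tap2 (0.39). Of 25 ligands, receptors and signalling genes 3 rose and 1 fell, the inhibitor Socs1 (-0.54), and of 9 genes that process double-stranded RNA or silence retroelements 2 fell and none rose, Adarb1 (-0.44) and Rnaseh2b (-0.27).

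At P14.5, 11 of 34 members were called in Morc1 tg/tg testis, 32.4%, a share near the 34.8% of all genes. Of these, 9 rose (14.8% of all genes did) and 2 fell (20.1% did), and the median over the 34 was 0.24, beside 0.01 over all genes. Of 6 sensors tested, 3 rose. Tlr3 was at 2.89, 2.43 and 3.20 RPKM in Morc1 tg/tg against 2.04, 1.83 and 1.65 RPKM in Morc1 tg/+ (log2 difference 0.63, SE 0.13, adjusted p = 0.00613). Eif2ak2 was at 6.08, 6.25 and 7.10 RPKM against 4.97, 4.77 and 4.49 RPKM (log2 difference 0.46, SE 0.09, adjusted p = 0.00397). Ddx58 was at 3.10, 2.29 and 2.25 RPKM against 2.03, 1.72 and 1.88 RPKM (log2 difference 0.45, adjusted p = 0.0402). In all 3, every Morc1 tg/tg library was above every Morc1 tg/+ library.

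Samd9l was higher as well, at 2.74, 2.15 and 2.35 RPKM against 1.62, 1.504 and 1.29 RPKM (log2 difference 0.72, SE 0.12, adjusted p = 0.00264). Irf1 was at 15.8, 16.4 and 15.4 RPKM against 12.8, 12.9 and 10.3 RPKM (log2 difference 0.41, adjusted p = 0.0076). The remaining rises were Cmpk2, a mitochondrial nucleotide kinase (0.43), Apobec3 (0.30), Mavs (0.25) and Stat2 (0.24). None of these 6 genes had overlapping groups. As for the sensors above, how many of all genes separate in this way was not counted. In the other direction, Irf3, the factor that MAVS and STING activate, was at 24.5, 25.7 and 24.7 RPKM against 33.1, 29.0 and 35.2 RPKM (log2 difference -0.37, SE 0.09, adjusted p = 0.0106). Isg20, an RNA exonuclease, was at 0.588, 0.356 and 0.631 RPKM against 0.858, 1.03 and 1.082 RPKM (log2 difference -0.90, adjusted p = 0.0284). Of the ISG15 and OAS genes, 0 of 2 and 0 of 4 tested were called.

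Leaving out Morc1 tg/+ replicate 3 reduced the count of 11 to 5, leaving out replicate 2 of that genotype to 6 and leaving out replicate 1 of Morc1 tg/tg to 7, and Tlr3, Eif2ak2, Irf1, Samd9l and Irf3 were called in each of the 6 fits without 1 library. Cmpk2 lost its call in 6 of them, Mavs in 5, Ddx58 and Isg20 in 4 each, Stat2 in 3 and Apobec3 in 1. Irf3 shares 1065 bases with Bcl2l12 and Irf1 907 bases with Gm17334 on the opposite strand. The cell markers moved strongly at this age. All 6 Sertoli cell markers were higher in Morc1 tg/tg (sums of 1111 to 1261 against 860 to 880 RPKM), all 6 meiosis markers were lower (106 to 136 against 320 to 413 RPKM), and 5 germ cell markers were lower and 1 higher, whereas 0 of 12 macrophage markers was called. The part of these markers in the calls was not tested.

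Among 29 further interferon-induced genes tested at P14.5, 8 rose (14.8% of all genes did) and none fell (20.1% did). In either direction 27.6% were called, beside the 34.8% of all genes. Ddx60, a cofactor of RIG-I, went from a mean of 1.04 to 1.71 RPKM (log2 difference 0.72, adjusted p = 0.00611) and Herc6 from 1.17 to 1.62 RPKM (0.48, adjusted p = 0.00756). Of 25 ligands, receptors and signalling genes, 8 rose and 2 fell (40% called), the latter being Ikbke (log2 difference -0.64) and Tbk1 (-0.39), the kinases that phosphorylate IRF3. The DNA sensor Aim2 went from a mean of 0.281 to 0.538 RPKM (log2 difference 0.95, adjusted p = 0.0167). H2-D1 (log2 difference -0.68) and H2-K1 (-0.55) fell, while Nlrc5 (0.69), the transactivator of MHC class I genes, and Psmb10 (0.34) rose. Of 6 NF-kB targets tested 2 rose and none fell, the inhibitor Nfkbia by 0.37 and Nfkb1 by 0.30. Of 9 genes that process double-stranded RNA or silence retroelements, 5 fell (20.1% of all genes did) and none rose, with Adarb1 at -0.51 and Setdb1 at -0.34.

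**Figure D3:**
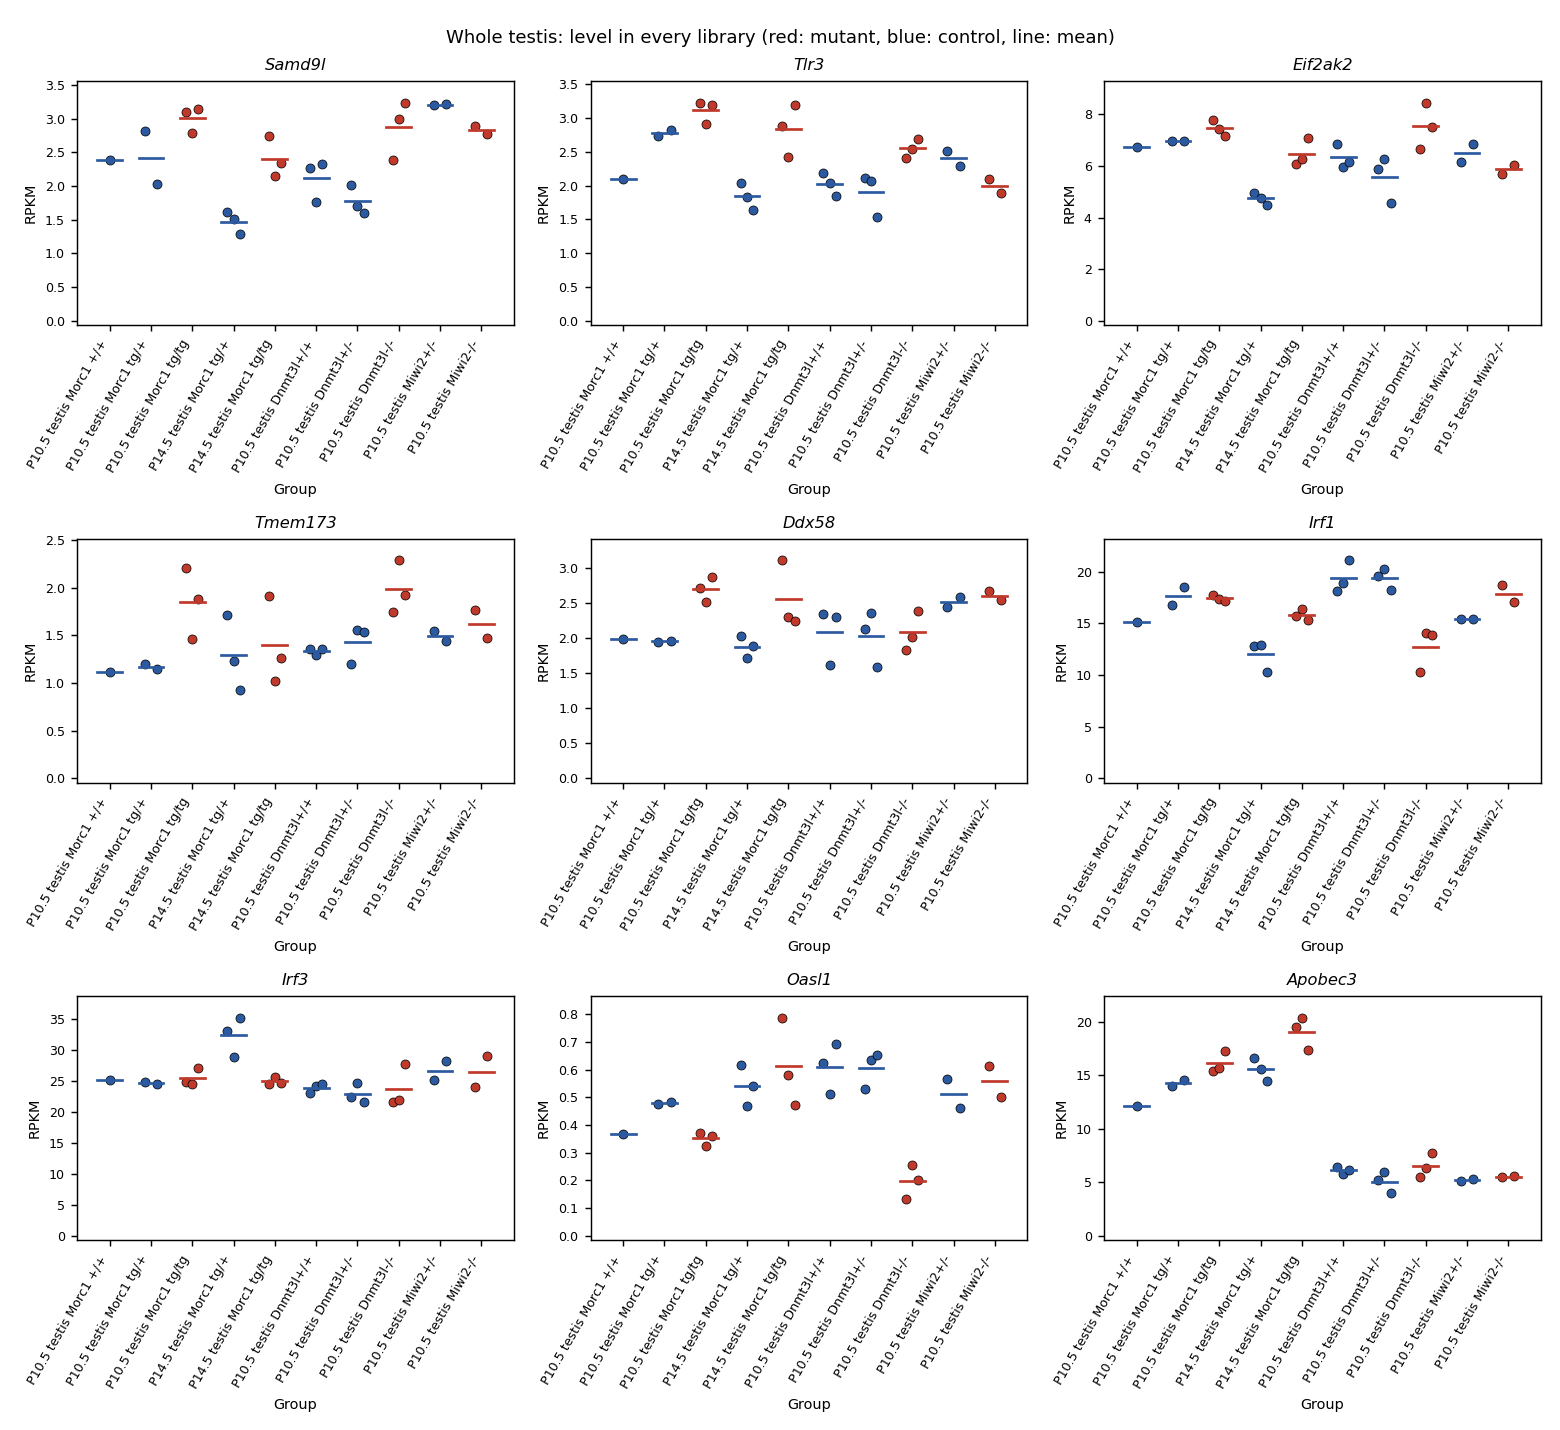
RPKM of 9 members in every library of the Morc1 testis series at P10.5 and P14.5 and of the Dnmt3l and Miwi2 testis series at P10.5, with 1 point per library by genotype. Samd9l, Tlr3 and Eif2ak2 lie higher in Morc1 tg/tg at P14.5, Irf3 lower in Morc1 tg/tg at P14.5, and Irf1 and Oasl1 lower in Dnmt3l-/-.

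Dnmt3l-/- testis at P10.5 gave calls for 15 of 36 members, or 41.7%, below the 53.9% of all genes called. Of these, 9 rose (24.9% of all genes did) and 6 fell (29% did), and the median over the 36 was 0.07, beside -0.00092 over all genes. Samd9l was at 2.39, 3.00 and 3.24 RPKM in Dnmt3l-/-, against 2.02, 1.70 and 1.60 RPKM in Dnmt3l+/- and 2.27, 1.77 and 2.32 RPKM in Dnmt3l+/+ (log2 difference 0.61, SE 0.13, adjusted p = 0.00188). Tmem173 was at 1.74, 2.29 and 1.93 RPKM against 1.20 to 1.56 RPKM in the 6 controls (log2 difference 0.56, adjusted p = 0.00289). Tlr3 was at 2.41, 2.55 and 2.69 RPKM against 1.53 to 2.19 RPKM (log2 difference 0.42, adjusted p = 0.00526). In each of the 3 the Dnmt3l-/- libraries lay above all 6 controls, a trait that was not counted over all genes.

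Ifit2 (log2 difference 0.44) and Ifi35 (0.43) rose without overlap too, and Ifit3 (0.68), Eif2ak2 (0.39), Bst2 (0.25) and Trim25 (0.20) rose with overlapping groups. Ifit3, whose promoter is printed above, remained low, at 0.347, 0.564 and 0.409 RPKM against 0.225 to 0.394 RPKM. Among the falls, Oasl1, a negative regulator of Irf7 translation, was at 0.134, 0.257 and 0.203 RPKM in Dnmt3l-/- against 0.51 to 0.692 RPKM (log2 difference -1.57, SE 0.22, adjusted p = 0.000107), and Oas1a at 0.103, 0.155 and 0.168 RPKM against 0.236 to 0.445 RPKM (log2 difference -1.18, adjusted p = 0.00234). Oasl2 was called lower (-0.98, adjusted p = 0.0409) with groups that overlapped. Of 4 OAS genes tested, 3 were thus called lower and none higher, beside the 29% of all genes called lower, but the Oasl2 call was lost with DESeq2 (adjusted p = 0.053) and in 6 of 9 fits without 1 library (0.0553 to 0.161).

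Irf1 was at 10.3, 14.0 and 13.9 RPKM in Dnmt3l-/- against 18.1 to 21.1 RPKM in the 6 controls (log2 difference -0.56, SE 0.09, adjusted p = 0.000278). The ADP-ribosyltransferase Parp14 was at 0.802, 1.02 and 0.864 RPKM against 1.16 to 1.35 RPKM (log2 difference -0.44, adjusted p = 0.00256), and Adar at 11.7, 13.2 and 12.1 RPKM against 13.5 to 15.3 RPKM (log2 difference -0.18, adjusted p = 0.0229). The 3 genes showed no overlap between groups. With Dnmt3l+/- controls alone the count of 15 was 10, and Trim25, Ifit2 (adjusted p = 0.0625), Ifit3, Oasl2 and Adar lost the call. With Dnmt3l+/+ controls alone it was 14, as Bst2 and Adar lost the call and Rsad2 gained one (higher). Rsad2 was also called higher without Dnmt3l+/- replicate 3. In the 9 fits without 1 library the count ran from 11 to 18, and Samd9l, Tmem173, Tlr3, Ifit2, Ifi35, Irf1, Oas1a, Oasl1 and Parp14 were called in all 9. All 7 germ cell markers and all 6 meiosis markers were lower in Dnmt3l-/- (germ cell sums of 139 to 162 against 347 to 446 RPKM), and 6 of 12 macrophage and 4 of 6 Sertoli cell markers were higher (macrophage sums of 88.1 to 136 against 67.4 to 105 RPKM, Sertoli cell sums of 1619 to 1702 against 914 to 1177 RPKM). These markers moved with the calls, and their part was not tested.

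Beyond the members, 12 of 31 further interferon-induced genes rose in Dnmt3l-/- testis (24.9% of all genes did) and 1 fell (29% did). In either direction 41.9% were called, below the 53.9% of all genes. The membrane protein Ifitm2 went from a mean of 71.7 to 135.4 RPKM (log2 difference 0.96, adjusted p = 0.000165), and Ddx60 rose by 0.53, while Gbp3 fell by 0.49. Of 25 ligands, receptors and signalling genes, 10 rose and 4 fell (56% called), with Aim2 at 1.18, Il28ra (a receptor chain for interferon lambda) at 0.68, Socs1 at -0.93 and Tyk2 at -0.71 on the log2 scale. Of 5 NF-kB targets tested 3 rose and 1, Relb, fell. Nfkbia went from a mean of 45.3 to 75.1 RPKM (log2 difference 0.77, adjusted p = 6.1e-05). Of the 9 genes of double-stranded RNA processing and silencing, 6 fell (29% of all genes did) and none rose, with Adarb1 (-0.96) and Dicer1 (-0.64) furthest.

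**Figure D4:**
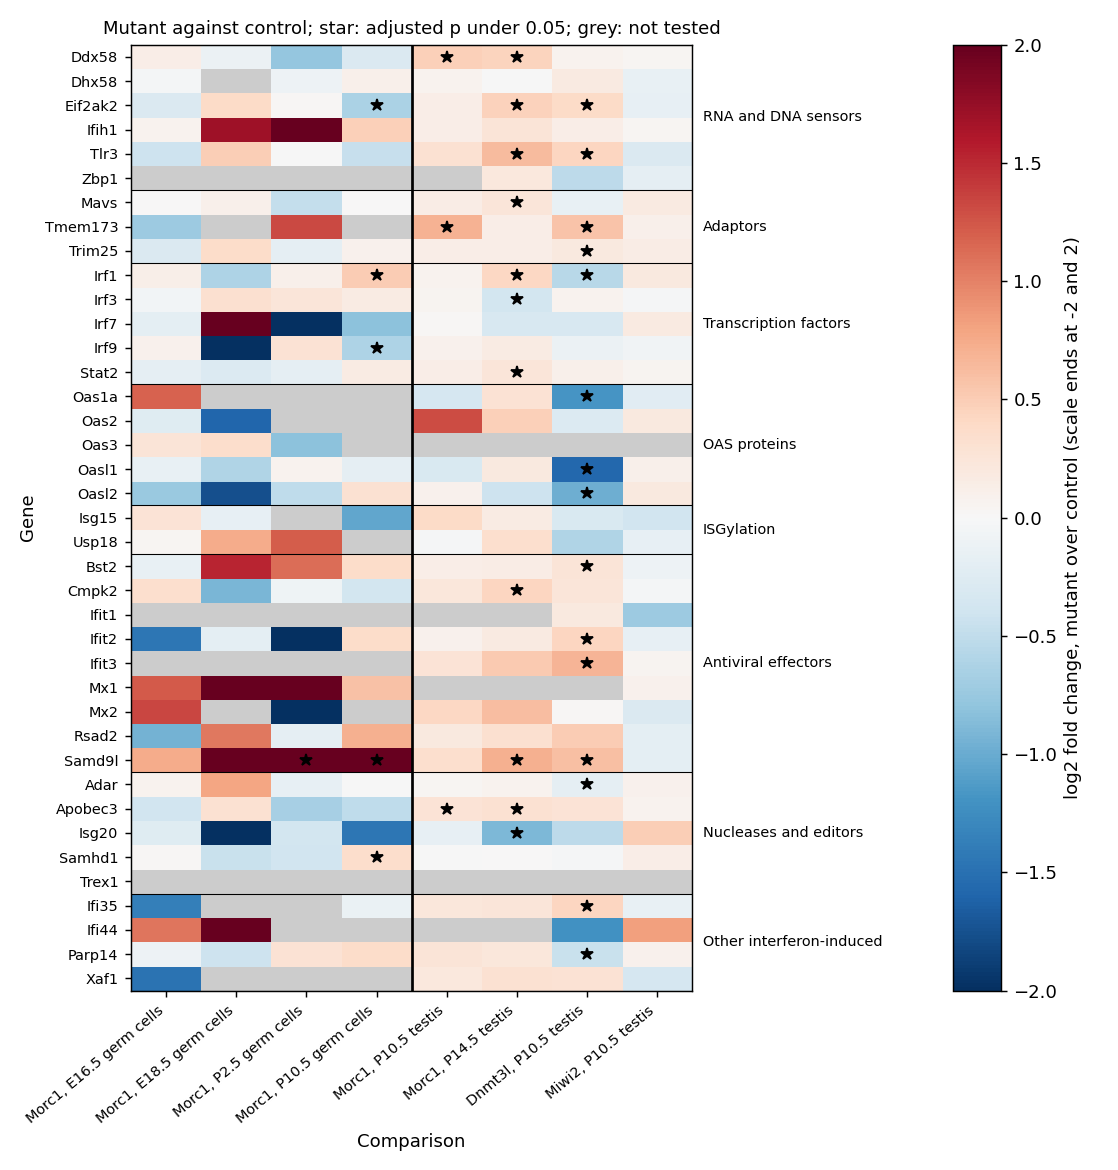
Log2 difference between mutant and control for each of the 39 members in the mutant comparisons, with genes in rows by role and called values marked. Samd9l is marked in P2.5 and P10.5 germ cells, P14.5 testis and Dnmt3l-/- testis, and Irf1 is marked higher in P10.5 germ cells and P14.5 testis and lower in Dnmt3l-/- testis.

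In the testes labelled Miwi2 KO, 0 of 37 members was called in edgeR, compared with 1.23% of all genes, and DESeq2 called 0 as well, whereas 8 members had an unadjusted p under 0.05 in edgeR and 4 in DESeq2. Differences were small. Irf1 was at 18.7 and 17.0 RPKM against 15.5 and 15.5 RPKM (log2 difference 0.19, adjusted p = 0.159), and Samd9l at 2.90 and 2.77 RPKM against 3.21 and 3.21 RPKM (log2 difference -0.20, adjusted p = 0.215). Neither pair of groups overlapped. Dnmt3l+/- and Dnmt3l+/+ testis, a comparison of 2 control genotypes, also gave 0 of 35 members called in edgeR and in DESeq2, compared with 0.00651% of all genes, with 1 member at an unadjusted p under 0.05 in edgeR and 2 in DESeq2. For neither comparison was the share of all genes at an unadjusted p under 0.05 counted, so the member counts at that threshold have no background.

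The difference between lines, ages and tissues was tested directly for each member. Against Dnmt3l-/- at P10.5, the Morc1 tg/tg difference was more positive for Oasl1 (by 1.20 on the log2 scale, SE 0.30, adjusted p = 0.012), Parp14 (0.66, adjusted p = 0.0171) and Irf1 (0.58, SE 0.12, adjusted p = 0.00491), or 3 of 37 members compared with 17.6% of all genes (9.45% more positive, 8.14% more negative). Irf1 was at 17.7, 17.4 and 17.1 RPKM in Morc1 tg/tg at P10.5 against 16.7, 18.54 and 15.1 RPKM in its controls, whose range held all 3. Between P14.5 and P10.5 the Morc1 difference changed for 1 of 34 members (8.22% of all genes, 6.73% more negative), Irf3 (-0.43, SE 0.10, adjusted p = 0.0193). Irf3 at P10.5 was at 24.9, 24.6 and 27.1 RPKM in Morc1 tg/tg against 24.9, 24.6 and 25.2 RPKM, with overlapping groups. That call was lost in 5 of 12 fits without 1 library, at adjusted p of 0.061 to 0.0793 (P14.5 Morc1 tg/+ replicate 1 or 3, P14.5 Morc1 tg/tg replicate 3, P10.5 Morc1 tg/+ replicate 3 or P10.5 Morc1 tg/tg replicate 3).

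Between P10.5 germ cells and P10.5 testis, the Morc1 difference was tested for 31 members, and 5 passed (6.81% of all genes, 3.15% more positive and 3.66% more negative). It was more positive in germ cells for Samd9l (by 3.85, SE 0.45, adjusted p = 7.52e-05), which in the testis was at 3.10, 2.79 and 3.14 RPKM in Morc1 tg/tg against 2.82, 2.02 and 2.39 RPKM (log2 difference 0.33, adjusted p = 0.0739). It was more negative in germ cells for Eif2ak2 (-0.79, SE 0.16, adjusted p = 0.00834), Tlr3 (-0.78, adjusted p = 0.0386), Apobec3 (-0.79, adjusted p = 0.0405) and Irf9 (-0.72, adjusted p = 0.0425). Samd9l and Eif2ak2 passed in each of the 13 fits without 1 library, whereas Tlr3, Apobec3 and Irf9 lost the call in 9, 10 and 10 of them. The Samd9l difference in germ cells is taken against 17 reads over the Morc1 tg/+ libraries, so its size on the log2 scale is uncertain. Kit, sort and cell mixture differ between the tissues and cannot be told apart from them here.

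Over the 9 mutant and control genotype comparisons, 24 of the 38 members tested at least once were called at least once (63.2%), near the 61% of the 18076 genes so tested. Trex1 was never tested. Samd9l was called higher in P14.5 Morc1 tg/tg and Dnmt3l-/- testis. Its calls in P2.5 and P10.5 germ cells came from tests that it entered through the Morc1 tg/tg libraries alone, and the P2.5 call was lost in 4 of 5 fits without 1 library. Eif2ak2 and Irf1 were called in 3 comparisons each, Eif2ak2 lower in P10.5 germ cells and higher in P14.5 Morc1 tg/tg and Dnmt3l-/- testis, and Irf1 higher in P10.5 germ cells and P14.5 Morc1 tg/tg testis and lower in Dnmt3l-/- testis. In P10.5 germ cells the Eif2ak2 call was lost in 3 of 7 fits without 1 library and the Irf1 call in 1. Ifit1, Mx1, Isg15, Zbp1 and Oas3 were each tested in at least 1 of these comparisons and not called in any of them. Rsad2 was not called there either, other than in Dnmt3l-/- testis under the choices of controls given above. Not all of these genes could be tested in every comparison. Ifit1 had no reads in either genotype in E18.5 and P2.5 germ cells, nor Zbp1 in P2.5 germ cells. Oas3 had 1 read over the P10.5 Morc1 tg/tg germ cell libraries and none in Morc1 tg/+.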

How the data were processed

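RNA-Seq was measured in 47 libraries. The authors trimmed reads to 50 bases, aligned them uniquely with at most 2 mismatches to mm9 with Bowtie, and counted them on genes with HTSeq. They deposited, for each library, raw counts per gene and the RPKM value made from them. Here the deposited counts were tested with edgeR 4.0.16 in R 4.3.3 (TMM factors, filterByExpr, quasi-likelihood test, Benjamini-Hochberg adjustment over all genes tested, called at adjusted p under 0.05), with the libraries of each comparison in a fit of their own, the control germ cell stages in 1 fit and differences between effects as interaction terms. The deposited RPKM values are printed as levels and were not tested. DESeq2 1.42.0, other filters and normalization, a replicate block, 1 fit of all sorted libraries and fits without each library in turn were alternatives. The edgeR test was also run on simulated counts for some of the comparisons. The changes planted there were in well-counted genes, so low-count members and smaller changes are not covered by it. Named members are those called in a mutant comparison and those highest in their role in control germ cells or control testis, and in the developmental comparisons and further lists the largest called changes without overlap between groups. Other members were named after their values were seen. Separation of groups without overlap was not counted over all genes in any comparison. It is given as a description and is no support for a difference. The members and lists were chosen with earlier results of these data known. Replicates are separate mice. The paper describes the Morc1 tg/+ controls as littermates of the mutants, but the labels do not say which libraries share a litter, so none were paired. Interval and floor statements cover counting error only.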

Additional observations from a re-analysis of the deposited data

Results flagged for a closer look

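Irf3 in P10.5 Morc1 tg/+ germ cells had 1 library at 12.7 RPKM beside 9.05, 8.93 and 8.65 RPKM, a gap of 0.9 of the group's range. Chance alone gives such a gap in about 1 in 20 groups. The other results listed here are differences between effects that passed the interaction test. The Morc1 tg/tg difference exceeded that of Dnmt3l-/- in P10.5 testis by 0.58 for Irf1, 1.20 for Oasl1 and 0.66 for Parp14 on the log2 scale, and the lines cannot be told apart from the mutations. The Parp14 call was lost without the Morc1 +/+ library (adjusted p = 0.0547) or Morc1 tg/tg replicate 1 (adjusted p = 0.0578). For Irf3 the Morc1 difference at P14.5 less that at P10.5 was -0.43. For P10.5 germ cells less P10.5 testis it was 3.85 for Samd9l, -0.79 for Eif2ak2, -0.78 for Tlr3, -0.72 for Irf9 and -0.79 for Apobec3, with kit and tissue not told apart.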

How the results depend on the processing

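Members called changed from 0 at E16.5 to 1 with DESeq2 and 1 with no filter, from 0 at E18.5 to 2 with DESeq2, 1 with no filter and 2 in the fit of all 20 sorted libraries, from 5 in P10.5 germ cells to 1 in that fit, from 3 in P10.5 testis to 6 with DESeq2, from 3 for E18.5 against E16.5 controls to 7 with DESeq2, and from 1 for the P14.5 against P10.5 effect to 3 with DESeq2, 2 with RLE factors and 2 with no filter. The cause was not tested. Without 1 library the counts ran from 0 to 0 at E16.5, 0 to 2 at E18.5, 0 to 1 at P2.5, 2 to 5 in P10.5 germ cells, 1 to 5 in P10.5 testis, 5 to 10 at P14.5, 11 to 18 for Dnmt3l, 0 to 0 for Miwi2 and for Dnmt3l+/- against Dnmt3l+/+, 1 to 11, 8 to 13 and 4 to 5 between successive germ cell stages, 15 to 17 between testis ages, and 2 to 4, 0 to 2 and 2 to 5 for the differences between lines, ages and tissues. Genes called overall went from 70 to 249 (DESeq2), 180 (no filter) and 8 (all sorted libraries) at E16.5, from 6 to 296, 83 and 619 at E18.5, from 7 to 73, 27 and 79 at P2.5, from 1712 to 125 in P10.5 germ cells (all sorted libraries), and with DESeq2 from 197 to 1344 for Miwi2, 1 to 2 for Dnmt3l+/- against Dnmt3l+/+, 1287 to 2201 for the ages and 1034 to 2185 for the tissues. Single members gave 332 results with the same call and 18 weaker ones under these settings, and 552 the same, 141 weaker and 1 stronger without 1 library, with none reversed.

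Replicate numbers were not taken to pair the libraries. Correlations of same-numbered deviations ran from -0.663 (Dnmt3l) to 0.57 (Miwi2, which has 2 pairs), and in no comparison with 3 or more pairs were all above 0.1 (0.449, 0.0108 and -0.172 at P14.5). In fits with a replicate block, members called were 1 at E16.5, 1 at E18.5 and 10 (6 higher) for Miwi2, Irf1 and Samd9l among them. The block took the call from Irf9 in P10.5 germ cells (adjusted p = 0.0702), Stat2 (0.0607) and Cmpk2 (0.0675) at P14.5 and Oasl2 in Dnmt3l-/- (0.0671). Genes called with the block were 174 at E16.5, 46 at E18.5, 30 at P2.5, 1200 of 2326 in P10.5 testis, 4503 for Miwi2 and 0 for Dnmt3l+/- against Dnmt3l+/+.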
